A study of Mus musculus with 23 samples.

Results

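The 37 genes carried by the mouse mitochondrial genome were followed gene by gene in 23 melanoma tumors. Members were all rows of the count table assigned to chromosome MT, 37 of 56748 genes, namely 13 protein-coding genes, 2 ribosomal RNA genes and 22 transfer RNA genes. All 37 had the same start, end and strand in the GENCODE vM39 annotation of GRCm39. The tumors grew from B16-F1 cells, a melanoma line derived from a C57BL/6 mouse, placed under the skin of inbred DBA/2J mice aged 6 to 8 weeks. All hosts were therefore of another strain than the tumor line, and 1 line represents melanoma in every group. Intraperitoneal treatment gave the groups CONTROL_IP (saline), PTX_IP (pentoxifylline, 60 mg/kg), NCTD_IP (norcantharidin, 3 mg/kg) and MIX_IP (both at those doses), with 2 tumors each. Intratumoral treatment gave CONTROL_IT (DMSO), NCTD_IT and MIX_IT with 4 tumors each and PTX_IT with 3, at the same doses. The labels name the route as the batch and the vehicle differed with it, so route, vehicle and batch cannot be told apart.

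Mitochondria keep a small circular chromosome that encodes 13 membrane subunits of the respiratory chain and of ATP synthase, the 2 RNAs of the mitochondrial ribosome and the transfer RNAs needed to translate them. Both strands are transcribed as long precursors from which the transfer RNAs are cut out, releasing messenger and ribosomal RNAs that then receive short poly(A) tails. All other respiratory subunits are encoded in the nucleus, so each complex except complex II is built from both genomes. The libraries were made with a 3′ method that starts from poly(A) tails, so a count reflects tailed RNA and not the number of genomes. In whole tumors, fewer cells of a type and less RNA per cell cannot be told apart, and RNA of tumor and host cells is read together.

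Total counts ran from 2861578 to 6702374 per tumor, with a median of 4013068. A count of 3 corresponded to 0.448 to 1.05 CPM, the count scaled to a common library total of 1e6. All 12 markers of the melanocyte lineage had counts in each group, and their summed level ran from 18138 to 42537 CPM. Xist, the RNA of the inactive X chromosome, was at 0 to 0.566 CPM in CONTROL_IT and 0 in all MIX_IT tumors, but at 5.19 to 13.6 CPM in NCTD_IT and 1.28 to 11.6 CPM in PTX_IT. Among IP tumors it had counts in 1 CONTROL_IP tumor alone, at 8.26 CPM. The Y-linked gene Ddx3y went the other way. It was at 1.03 to 8.98 CPM in CONTROL_IT, 0 to 0.294 CPM in NCTD_IT and 0 to 0.279 CPM in PTX_IT. Sex-linked RNAs therefore differed between IT controls and the NCTD_IT and PTX_IT tumors. In both NCTD_IT and PTX_IT, Xist and treatment cannot be told apart.

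The annotated ends of the messenger RNA genes differ in how the stop codon is encoded. They are bases of the genome and do not show where reads fell. Of the 13 protein-coding genes, 10 end on an encoded stop codon and 3 end on a single T that the poly(A) tail completes to a stop. Their last 20 bases in GRCm39 are given 5′ to 3′, with the encoded part of the stop in capitals. The first 3 are the genes with an incomplete stop, and the next 3 have a full one, mt-Nd6 being the only messenger RNA gene on the opposite strand.
mt-Cytb, chrM:15269-15288, plus strand: aatactaaaattatatccaT
mt-Nd4, chrM:11525-11544, plus strand: aattacaggcctgacaataT
mt-Co3, chrM:9371-9390, plus strand: catttattgatgaggatctT
mt-Co2, chrM:7677-7696, plus strand: gatctgcttcaataattTAA
mt-Nd1, chrM:3688-3707, plus strand: gagtaccaccatacataTAG
mt-Nd6, chrM:13552-13571, minus strand: tcgagattactcgagatTAA

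Some of these genes cannot be counted apart from copies of themselves. A stretch of chromosome 1, chr1:24650616-24655269 on the minus strand, matched bases 6390 to 11042 of the 16299-base mitochondrial genome over 4654 aligned positions at 99.936% identity. Only 2 substitutions and 1 gap separated them, and the stretch equals 28.5% of the mitochondrial genome. It holds 6 whole protein-coding genes and parts of 2 more, with 5 transfer RNA genes. One substitution lies in mt-Nd3, a complex I subunit gene, and is written T9461C, with the mitochondrial base first, its position on the mitochondrial genome, then the base of the copy. The pair below shows that 25-base window, with the differing base in capitals.
mt-Nd3, chrM:9449-9473, plus strand: gaagagagtaatTaacctgtacact
copy of mt-Nd3, chr1:24652186-24652210, minus strand: gaagagagtaatCaacctgtacact

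The other substitution, A6393T, lies in mt-Co1. Pseudogene models on this stretch took many counts. Gm28437, the copy of mt-Co3, held a median of 74.7% of the counts of the pair, and Gm28661, the copy of mt-Co2, held 57.5%. The medians were 51.8% for Gm28438 (mt-Nd3), 50.2% for Gm29216 (mt-Co1), 36.8% for Gm10222 (mt-Nd4l), 13.9% for Gm10925 (mt-Atp6) and 0.905% for Gm28439 (mt-Nd4). Counts of mt-Co1, mt-Co2, mt-Co3, mt-Nd3, mt-Nd4l and mt-Atp6 are therefore uncertain in level, as are those of mt-Atp8, which also lies whole inside the stretch, since it is not stated how reads that match both places were assigned. The 7 copies together held 23.8 to 37.2% of the summed counts of copies and all 37 mitochondrial genes. The genes mt-Cytb, mt-Nd1, mt-Nd2, mt-Nd5, mt-Nd6, mt-Rnr1 and mt-Rnr2 lie outside the stretch.

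**Figure D1:**
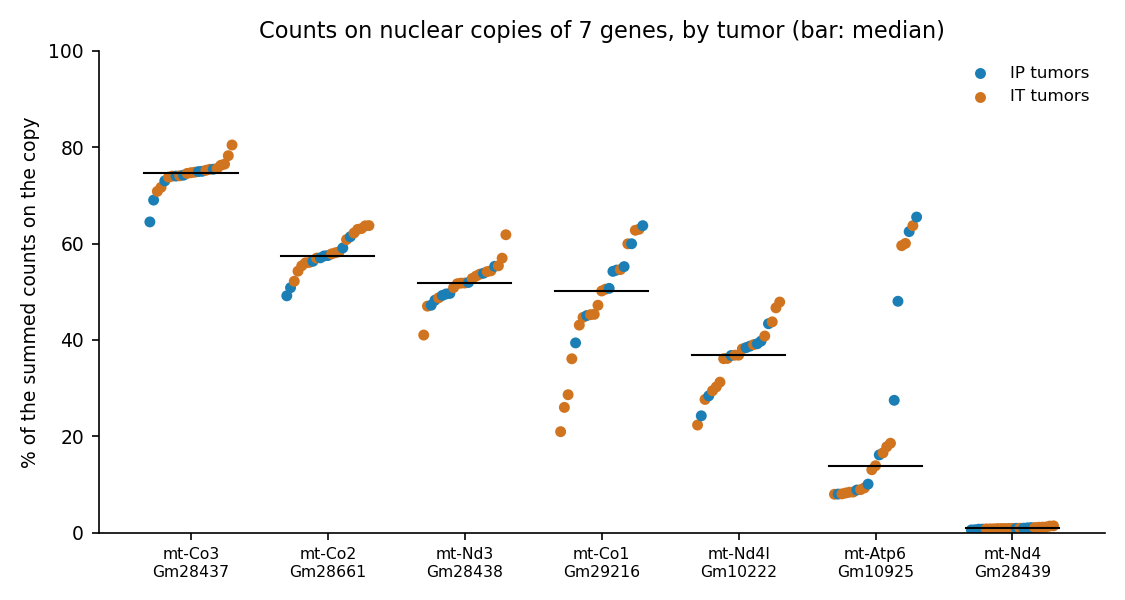
Percent of the summed counts of 7 mitochondrial genes and their chromosome 1 copies that fell on the copy (vertical axis), with 1 point per tumor, sorted by value within each pair and colored by route, and a bar at the median of 23. Gm28437 took 64.5 to 80.4% of its pair in every tumor, whereas Gm10925 fell into a range of 7.99 to 27.5% in 17 tumors and 48.0 to 65.5% in 6.

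The copy of mt-Atp6 split the tumors. Gm10925 took 7.99 to 27.5% of the pair in 17 tumors and 48.0 to 65.5% in the other 6, with none between. The 6 tumors were CONTROL_IP replicate 2, PTX_IP replicate 4, MIX_IP replicate 8, CONTROL_IT replicates 10 and 11, and NCTD_IT replicate 20, so the split crossed both routes and all treatments but not every group. All 3 PTX_IT and all 4 MIX_IT tumors were on the low side. The log2 fold change of Gm10925 was -2.69 (SE 0.90, adjusted p 0.220) in MIX_IT and -2.60 (SE 1.00, adjusted p 0.785) in PTX_IT by edgeR's quasi-likelihood test, so it was not called in either.

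The filter on low counts left 16 members (the 13 protein-coding genes, both ribosomal RNA genes and mt-Tp), and 21 of the 22 transfer RNA genes had 0 counts in every tumor. A count of 0 in a tumor allows a level of up to 0.448 to 1.05 CPM, depending on its total, for counting error alone. Transfer RNAs carry a CCA end in place of a poly(A) tail and are short. The exception, mt-Tp (transfer RNA for proline, minus strand), had 17 to 97 counts per tumor. Its 67 bases are shown because it is the only transfer RNA gene with a signal, with the anticodon in capitals.
mt-Tp, chrM:15356-15422, minus strand: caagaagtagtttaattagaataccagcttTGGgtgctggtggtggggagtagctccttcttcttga

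Levels per kilobase of gene differed widely among genes. The order of the medians over 23 tumors, in CPM per kilobase, began with mt-Cytb at 8469, mt-Co2 at 6097, mt-Nd1 at 4641 and mt-Atp6 at 3996. It went on with mt-Nd4 at 2815, mt-Nd3 at 2144, mt-Co3 at 2085, mt-Nd2 at 1505, mt-Rnr2 at 1115, mt-Co1 at 798, mt-Rnr1 at 716 and mt-Nd6 at 669. The lowest were mt-Nd5 at 189, mt-Atp8 at 64.5 and mt-Nd4l at 47.8. Several neighbors in this order changed places between tumors. Per kilobase, mt-Co1 was above mt-Rnr1 in only 12 of 23 tumors, mt-Nd4 above mt-Nd3 in 16 and mt-Nd3 above mt-Co3 in 17. In contrast, mt-Cytb was above mt-Co2, and mt-Nd6 above mt-Nd5, in 23 of 23 per kilobase. The libraries read 3′ ends, so counts need not grow with gene length. The order per kilobase is therefore not an order of RNA amounts, and the division by length shaped it. By median CPM alone mt-Nd3 ranked 10 rather than 6, and mt-Rnr2 ranked 6 rather than 9. Without the division mt-Nd6 and mt-Nd5 had medians of 347 and 345 CPM, and mt-Nd6 was below mt-Nd5 in some tumors. With 1161228 counts in all, mt-Cytb ranked 3 among all genes of the table by total.

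**Figure D2:**
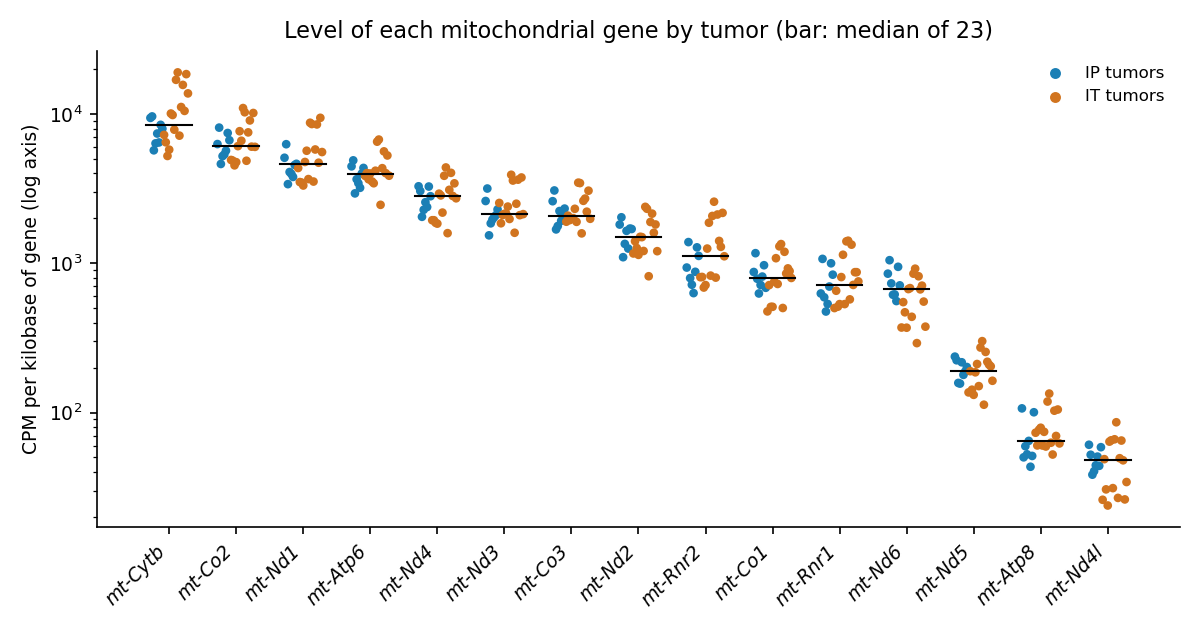
Level of 15 mitochondrial genes in CPM per kilobase of gene (vertical log axis), with 1 point per tumor colored by route and a bar at the median of 23 tumors, ordered by that median. The medians run from 8469 for mt-Cytb to 47.8 for mt-Nd4l. In 3′ libraries counts need not grow with gene length, so these values do not rank RNA amounts.

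Genes that share 1 messenger RNA were counted very unequally. The reading frames of mt-Atp8 and mt-Atp6, both subunits of the ATP synthase, overlap by 43 bases, and those of mt-Nd4l and mt-Nd4 by 7 bases. Each pair is known to be carried on a single RNA, with the first-named gene at its 5′ end. Counts on mt-Atp6 were 131 to 326 times those on mt-Atp8, with a median of 182.5. Counts on mt-Nd4 were 185 to 609 times those on mt-Nd4l, with a median of 272. The gene at the 3′ end thus took nearly all counts of its RNA, and mt-Atp8 (37 to 139 counts) and mt-Nd4l (23 to 113 counts) were measured with few. The genes mt-Nd5 and mt-Nd6 overlap by 14 bases on opposite strands. Since a strand setting is not given in the sources used here, reads of one cannot be told from antisense RNA of the other.

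The share of all counts that fell on the 37 genes was lowest in CONTROL_IT among the IT groups and highest in CONTROL_IP among the IP groups. In the IP route the 2 tumors of a group were at 3.69 and 4.29% in CONTROL_IP, 2.44 and 2.698% in PTX_IP, 2.92 and 2.82% in NCTD_IP and 3.62 and 3.41% in MIX_IP. Every treated IP tumor was below both controls. The mean share was 0.644 times that of CONTROL_IP in PTX_IP, 0.719 times in NCTD_IP and 0.881 times in MIX_IP. In the IT route the shares were 2.68, 2.67, 2.42 and 2.48% in CONTROL_IT and 3.50, 3.86 and 2.97% in PTX_IT. NCTD_IT tumors were at 5.96, 6.32, 2.47 and 4.18%, and MIX_IT tumors at 5.17, 3.57, 5.73 and 3.86%. Every PTX_IT and MIX_IT tumor was above all 4 controls, whereas NCTD_IT replicate 19, at 2.47%, lay within their range. The mean share was 3.44% ± 0.45 (SD, n = 3) in PTX_IT, 4.73% ± 1.78 (SD, n = 4) in NCTD_IT and 4.58% ± 1.04 (SD, n = 4) in MIX_IT, against 2.56% ± 0.13 (SD, n = 4) in CONTROL_IT. These are 1.34, 1.85 and 1.79 times the control mean. A summed share was not tested here, so these values are a description.

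**Figure D3:**
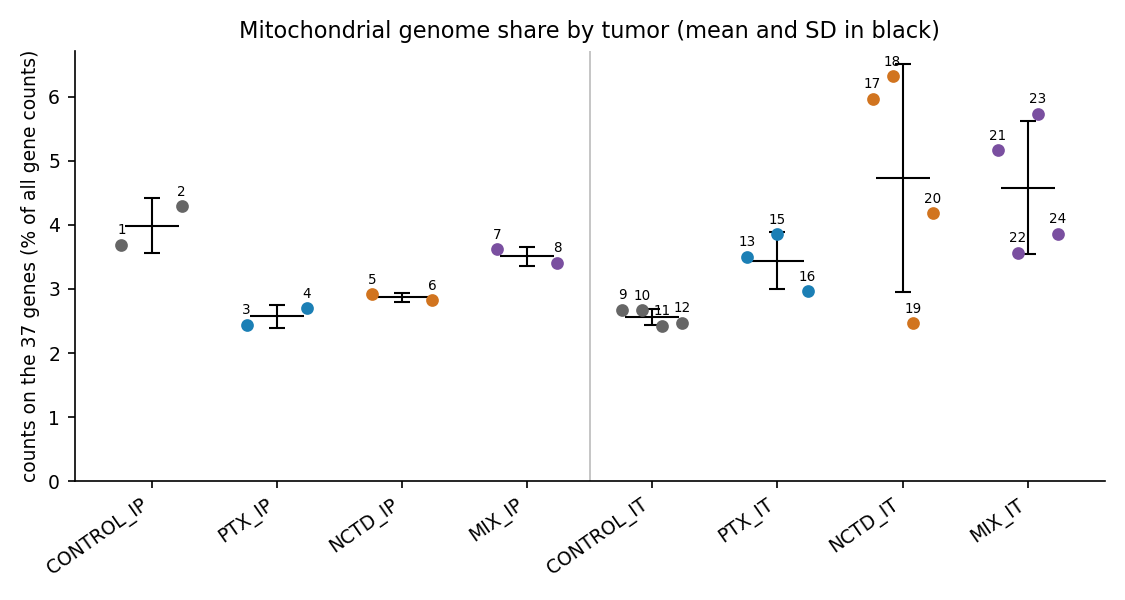
Percent of all gene counts on the 37 mitochondrial genes (vertical axis) in each of 23 tumors, with the replicate number above each point and the mean and SD of each of 8 groups in black. The treated IP tumors (2.44 to 3.62%) lie below both CONTROL_IP tumors, and every treated IT tumor except NCTD_IT replicate 19 lies above the 4 CONTROL_IT tumors.

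By edgeR's quasi-likelihood test, NCTD given into the tumor was the only treatment with mitochondrial genes past the threshold. In that fit, 171 of 12480 genes (1.37%) had an adjusted p under 0.05 in NCTD_IT against CONTROL_IT, and 3 of the 16 tested members were among them, all higher. They were mt-Cytb, the complex III subunit cytochrome b, and the ribosomal RNA genes mt-Rnr1 and mt-Rnr2. All 16 members had a log2 fold change above 0, from 0.35 to 1.33 with a median of 0.74, while the median over all genes tested was 0.03 and 52% of them were above 0. At an unadjusted p under 0.05, 12 members were higher and none lower, against 11.6% and 10% of all genes. No member had NCTD_IT tumors all above the controls, against 7.82% of all genes. For every member NCTD_IT replicate 19 was below the highest control, and for some, such as mt-Nd4 and mt-Atp6, below all controls. The number of calls changed with single tumors, over the whole table as well as among the members. Without NCTD_IT replicate 19, 7 members were called among 71 genes in all. When CONTROL_IT replicate 9, 11 or 12 or NCTD_IT replicate 17 or 18 was left out, 0 members were called, among 0 or 1 genes in all. Without CONTROL_IT replicate 10 or NCTD_IT replicate 20, 1 member was called, among 191 and 126 genes. The log2 fold change of mt-Cytb stayed between 0.93 and 1.36 in these 8 fits. With the log2 level of Xist as a covariate, 0 members and 0 of all genes were called, and no member had an unadjusted p under 0.05. Xist did not overlap between these 2 groups, so that fit cannot separate Xist from treatment.

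**Figure D4:**
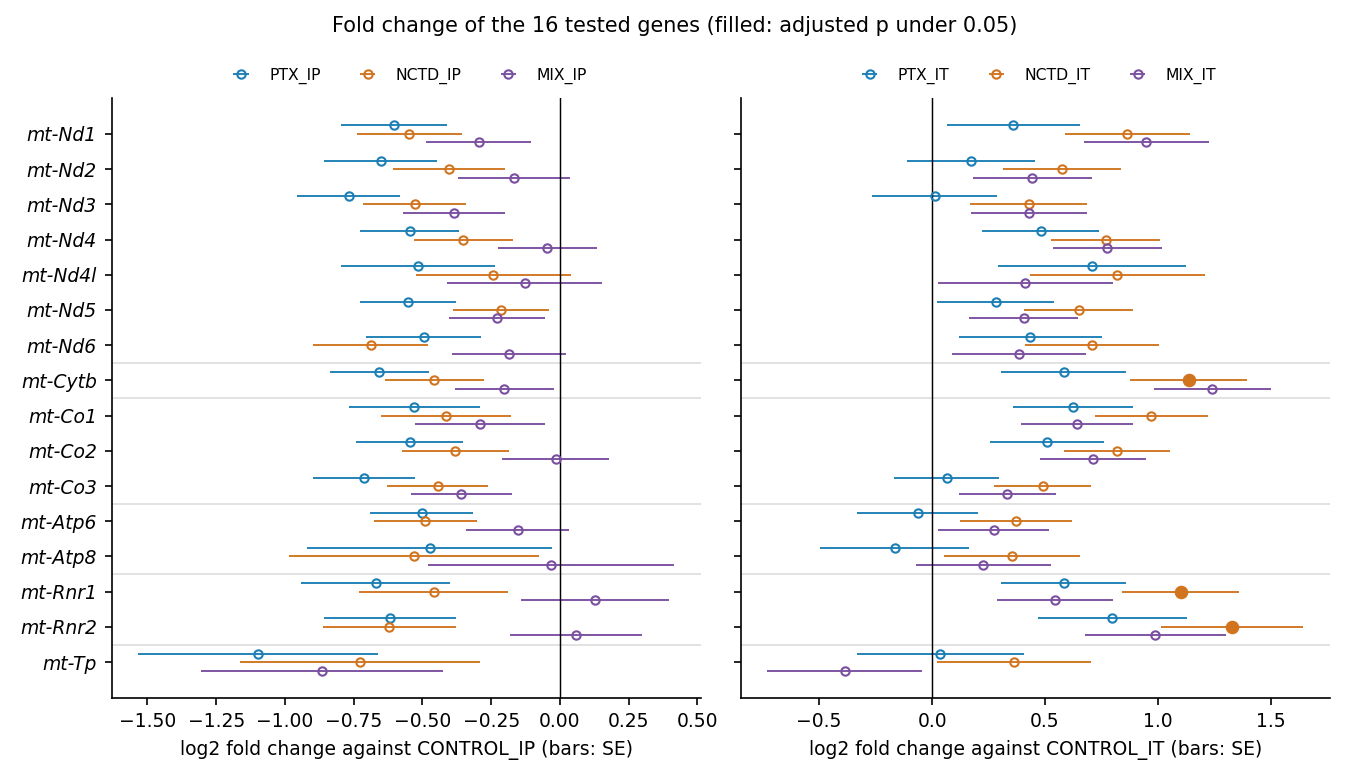
Log2 fold change of the 16 tested genes (rows, grouped by complex) against the control of the same route, with SE as bars, for PTX, NCTD and MIX, IP at left and IT at right. Filled points mark an adjusted p under 0.05 (mt-Cytb, mt-Rnr1 and mt-Rnr2 in NCTD_IT), and all 16 points of NCTD_IT are above 0 while all 16 of NCTD_IP and PTX_IP are below.

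Complex III has a single mitochondrial subunit, cytochrome b, which carries the quinone-binding sites of the enzyme. In the IT route, mt-Cytb was at 8297, 7401, 5994 and 6604 CPM in CONTROL_IT and at 11537, 11278 and 8992 CPM in PTX_IT. It was at 19407, 21760, 8202 and 12755 CPM in NCTD_IT and at 17945, 12014, 21191 and 15741 CPM in MIX_IT. The PTX_IT and MIX_IT values were above all 4 controls, and NCTD_IT replicate 19 was inside the control range. The log2 fold change was 1.14 (SE 0.26, adjusted p 0.0444) in NCTD_IT, 1.24 (SE 0.26, adjusted p 0.122) in MIX_IT and 0.58 (SE 0.28, adjusted p 0.788) in PTX_IT by edgeR. The larger fold change in MIX_IT was not called, and the difference between MIX_IT and NCTD_IT was within its error (log2 difference 0.11, SE 0.26, adjusted p 0.952). Given IP, mt-Cytb was at 10782 and 11030 CPM in CONTROL_IP, 6540 and 7278 in PTX_IP, 8472 and 7382 in NCTD_IP and 9689 and 9127 in MIX_IP. All 6 treated IP tumors were below both controls. The log2 fold changes were -0.66 (SE 0.18) in PTX_IP, -0.46 (SE 0.18) in NCTD_IP and -0.20 (SE 0.18) in MIX_IP, with adjusted p from 0.906 to 0.999.

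The mitochondrial ribosomal RNAs, the 12S RNA of the small subunit (mt-Rnr1) and the 16S RNA of the large one (mt-Rnr2), gave the other calls. In CONTROL_IT, mt-Rnr2 was at 1276, 1281, 1088 and 1130 CPM, and in NCTD_IT at 3284, 4092, 1269 and 3358 CPM. The log2 fold change in NCTD_IT was 1.33 (SE 0.31, adjusted p 0.0487), with replicate 19 again among the controls. In MIX_IT, mt-Rnr2 was at 2234, 2040, 3444 and 1763 CPM, above every control, with a log2 fold change of 0.99 (SE 0.31, adjusted p 0.197). In CONTROL_IT, mt-Rnr1 was at 479, 625, 489 and 509 CPM, and in NCTD_IT at 1340, 1353, 547 and 1273 CPM, a log2 fold change of 1.10 (SE 0.26, adjusted p 0.0487). Here replicate 19 was above 3 of the 4 controls. With Xist as a covariate the NCTD_IT values were -0.10 for mt-Rnr2, -0.17 for mt-Rnr1 and 0.64 for mt-Cytb (adjusted p 0.861 for the last). That fit cannot separate Xist from treatment. Neither ribosomal RNA was called in the 3 IP comparisons, with log2 fold changes from -0.67 to 0.13. The 2 ribosomal RNAs together made 5.14 to 10.8% of the mitochondrial counts of a tumor. Their mean share was 6.66% ± 0.31 (SD, n = 4) in CONTROL_IT and 8.68% ± 1.49 (SD, n = 4) in NCTD_IT.

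Complex I, the NADH dehydrogenase, takes 7 of the 13 encoded subunits, which form part of its membrane arm. With all tumors and the filter on low counts, none of the 7 was called by edgeR in any comparison with control. In contrast, DESeq2 on the 2 groups called mt-Nd1 and mt-Nd4 higher in NCTD_IT (adjusted p 0.00930 and 0.0250) and in MIX_IT (adjusted p 0.0140 and 0.00261). The best measured, mt-Nd1, was at 4163, 3351, 3325 and 3179 CPM in CONTROL_IT, 8371, 8207, 3378 and 5541 in NCTD_IT and 8156, 4517, 9031 and 5326 in MIX_IT. All MIX_IT tumors were above the controls, while NCTD_IT replicate 19 was not. Its log2 fold change was 0.86 (SE 0.28, adjusted p 0.0906) in NCTD_IT, 0.95 (SE 0.28, adjusted p 0.185) in MIX_IT and 0.36 (SE 0.29, adjusted p 0.851) in PTX_IT. Next came mt-Nd4, with log2 fold changes of 0.77 (SE 0.24, adjusted p 0.0865) in NCTD_IT, 0.78 (SE 0.24, adjusted p 0.197) in MIX_IT and 0.48 (SE 0.26, adjusted p 0.795) in PTX_IT. In NCTD_IT the other 5, mt-Nd2, mt-Nd3, mt-Nd4l, mt-Nd5 and mt-Nd6, had log2 fold changes of 0.58, 0.43, 0.82, 0.65 and 0.71. The lowest of these (mt-Nd3) and the highest (mt-Nd4l) both belong to genes that lie whole inside the chromosome 1 stretch. By the IP route all 7 were below 0 in all 3 comparisons, from -0.05 for mt-Nd4 in MIX_IP to -0.77 for mt-Nd3 in PTX_IP. In PTX_IP, mt-Nd3 was at 536 and 645 CPM against 910 and 1103 CPM in CONTROL_IP (SE 0.19, adjusted p 0.906).

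Complex IV, cytochrome c oxidase, has its 3 core subunits in the mitochondrial genome, and all 3 genes have copies on chromosome 1. With all tumors and the same filter, none of the 3 was called by edgeR, whereas DESeq2 on the 2 groups called mt-Co1 and mt-Co2 higher in NCTD_IT (adjusted p 0.00586 and 0.00614) and in MIX_IT (adjusted p 0.0244 and 0.0371). In the edgeR fit the catalytic subunit gene mt-Co1 came closest, with a log2 fold change of 0.97 (SE 0.25, adjusted p 0.0565) in NCTD_IT. It was at 735, 1103, 789 and 789 CPM in CONTROL_IT and 2007, 2078, 775 and 1845 CPM in NCTD_IT. PTX_IT tumors were at 1165, 1671 and 1123 CPM and MIX_IT tumors at 1320, 1428, 1368 and 1232 CPM, so both groups were above every control. The log2 fold changes there were 0.62 (SE 0.27, adjusted p 0.785) and 0.64 (SE 0.25, adjusted p 0.285). For mt-Co2 they were 0.82 in NCTD_IT (SE 0.24, adjusted p 0.0692), 0.71 in MIX_IT (SE 0.23, adjusted p 0.212) and 0.51 in PTX_IT (SE 0.25, adjusted p 0.790). For mt-Co3 they were 0.49, 0.33 and 0.06 (SE 0.21, 0.21 and 0.23). Among IP comparisons the 3 genes ran from -0.01 (mt-Co2 in MIX_IP) to -0.71 (mt-Co3 in PTX_IP, SE 0.18, adjusted p 0.906).

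Complex V, the ATP synthase, had the lowest log2 fold changes of the 4 complexes in PTX_IT, NCTD_IT and MIX_IT. Its gene mt-Atp6, for the subunit of the proton channel, was at 2623, 2739, 2490 and 2722 CPM in CONTROL_IT. It was at 2408, 2342 and 2841 in PTX_IT, 4449, 4595, 1679 and 2955 in NCTD_IT, and 3829, 2739, 3595 and 2631 in MIX_IT. Every treated group overlapped the controls. The log2 fold changes were -0.06 (SE 0.27) in PTX_IT, 0.37 (SE 0.25) in NCTD_IT and 0.27 (SE 0.25) in MIX_IT, with adjusted p from 0.398 to 0.977. The small subunit gene mt-Atp8, with at most 139 counts in a tumor, was at -0.17, 0.35 and 0.23 (SE 0.33, 0.30 and 0.30). For IP tumors, mt-Atp6 was at 3039 and 3334 CPM in CONTROL_IP, 2003 and 2491 in PTX_IP, 2343 and 2183 in NCTD_IP and 2720 and 2966 in MIX_IP. All treated values were below both controls, with log2 fold changes of -0.50, -0.49 and -0.15 (SE 0.19 each). With the counts of Gm10925 added, mt-Atp6 was at -0.44 in MIX_IT and 0.27 in MIX_IP, opposite in sign to the values without it.

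The make-up of the messenger RNA counts therefore differed between IT controls and treated IT tumors. Of the counts on the 13 protein-coding genes, mt-Cytb took 29.3% ± 2.2 (SD, n = 4) in CONTROL_IT, 33.3% ± 1.9 (SD, n = 3) in PTX_IT, 35.8% ± 2.0 (SD, n = 4) in NCTD_IT and 38.6% ± 3.3 (SD, n = 4) in MIX_IT. The highest control was at 32.0% and the lowest treated tumor at 32.2%. On these counts no treated IT tumor overlapped the controls, replicate 19 of NCTD_IT included. The share of mt-Atp6 was 11.01% ± 0.70 (SD, n = 4) in CONTROL_IT, against 7.83% ± 0.33 (SD, n = 4) in NCTD_IT and 7.45% ± 0.62 (SD, n = 4) in MIX_IT, both lower without overlap. In PTX_IT it was 8.09% ± 1.82 (SD, n = 3), and its highest tumor, at 10.2%, reached the control range of 10.1 to 11.8%. In the IP route mt-Cytb took 28.6 to 31.1% in all 8 tumors, and mt-Atp6 took 8.28 to 9.79%. Shares of 1 total are tied to each other and were not tested. They also leave out counts on the chromosome 1 copies. Of the summed counts of copies and mitochondrial genes, the copies held 26.6% in CONTROL_IT replicate 9 and 34.6% in PTX_IT replicate 15. Gm10925 took 8.24 to 60.0% of the mt-Atp6 pair in CONTROL_IT and 63.7% in NCTD_IT replicate 20. The lack of overlap therefore holds only for counts assigned to the mitochondrial genes, and was not examined with the copies added.

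**Figure D5:**
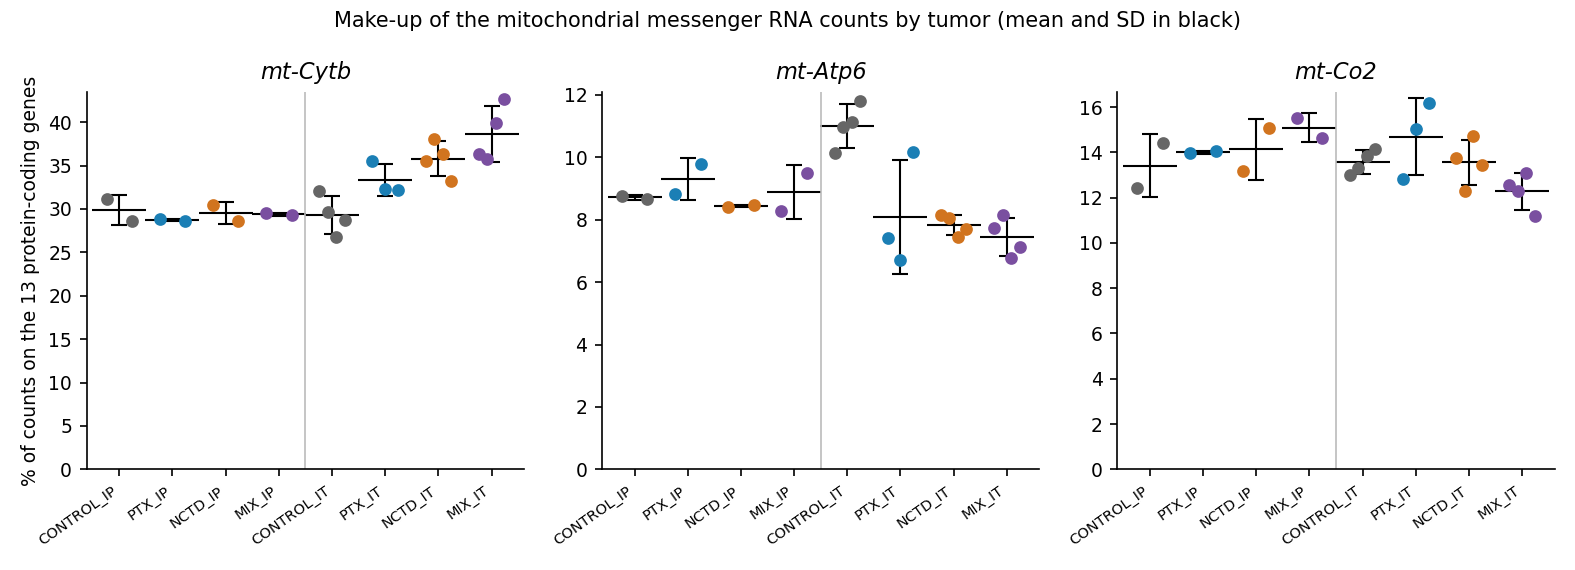
Percent of the counts on the 13 mitochondrial protein-coding genes taken by mt-Cytb, mt-Atp6 and mt-Co2 (vertical axes) in each tumor, with the mean and SD of each of 8 groups in black. In the IT groups mt-Cytb took 26.8 to 32.0% in controls and 32.2 to 42.7% in treated tumors, and mt-Atp6 took 10.1 to 11.8% in controls and 6.71 to 10.2% in treated tumors.

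The other IT treatments had no member called. In PTX_IT against CONTROL_IT, 0 of 12480 genes were called (0%) and 2 members, mt-Co1 and mt-Rnr2, had an unadjusted p under 0.05, both higher, against 4.18% of genes. The median member was at 0.40, and 14 of 16 were above 0 against 51.6% of all genes. The 5 members with all PTX_IT tumors above the controls were mt-Nd4, mt-Cytb, mt-Co1, mt-Co2 and mt-Rnr2, against 3.81% of genes. In MIX_IT, 0 genes were called (0%), 6 members were higher at an unadjusted p under 0.05 against 7.88% of genes, and 15 of 16 were above 0 against 51.1%. Here 7 members did not overlap the controls, all higher, against 4.93% of genes. DESeq2 on the 2 groups called 7 members in MIX_IT, among 228 called of 23247 genes with a p-value, and 0 in PTX_IT, among 14 genes. The transfer RNA gene mt-Tp was the 1 member below 0 in MIX_IT, at -0.39 (SE 0.34, adjusted p 0.672). Against each other, MIX_IT and NCTD_IT had 0 members called, the only gene past the threshold being Ddx3y (0.00801% of genes), and MIX_IT and PTX_IT had 0 (0%). Their 16 log2 differences ran from -0.75 to 0.11 and from -0.42 to 0.66, and 2 and 1 of them had an unadjusted p under 0.05, against 6.02% and 3.75% of genes.

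In the IP route edgeR called no gene of the table in any comparison with control (0% each), at 2 tumors per group. In PTX_IP against CONTROL_IP all 16 members were below 0 while 51.2% of genes were above it, with a median of -0.58 against 0.01 over all genes, and 13 had an unadjusted p under 0.05 against 2.3% of genes lower. In NCTD_IP all 16 were below 0 while 49.1% of genes were above it, with a median of -0.46 against -0.01, and 7 had an unadjusted p under 0.05 against 1.67%. In MIX_IP 14 were below 0 while 48.8% of genes were above it, with a median of -0.18 and none with an unadjusted p under 0.05 against 2.94% in both directions. Both treated tumors were below both controls for 15 members in PTX_IP (16.1% of all genes), 14 in NCTD_IP (18%) and 8 in MIX_IP (18.9%). The 3 comparisons share the 2 control tumors, so they are not independent of each other. With PTX and NCTD as the factors of 1 model over the 8 tumors, 0 members were called for either (0% of genes each), none had an unadjusted p under 0.05 against 2.96% and 2.56% of genes, and the median member was at -0.19 for PTX and -0.02 for NCTD. DESeq2 on the 2 groups called 0 members in each of the 3, among 9 genes called in NCTD_IP, 4 in PTX_IP and 8 in MIX_IP.

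Whether a drug acted differently by route was tested as the difference of its log2 fold changes, IT minus IP, in a model of all 23 tumors. All 16 members were above 0 for all 3 treatments, against 52.8% of genes for NCTD, 51.5% for PTX and 53.5% for MIX. The 3 contrasts share both control groups, so they are not independent of each other. The medians were 1.11 for NCTD, 1.00 for PTX and 0.68 for MIX. None was called, as was no gene (0% in each), and 13, 9 and 5 members had an unadjusted p under 0.05, against 5.5%, 2.59% and 4.75% of genes higher. The largest was mt-Rnr2 for NCTD at 1.95 (SE 0.50, adjusted p 0.271 by edgeR). With drug in the model, the 16 log2 differences IT against IP ran from -0.41 (mt-Nd6) to 0.40 (mt-Cytb), none called, against 0.366% of genes, and 2 with an unadjusted p under 0.05 against 13.5%.

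The members varied together to unequal degree. Over 23 tumors, Spearman's rho between the log2 level of a gene and the sum of the other messenger RNAs was 0.94 for mt-Nd1, 0.90 for mt-Nd4, 0.89 for mt-Co2 and 0.88 for mt-Cytb and mt-Rnr2. It was lowest for mt-Tp at 0.35, mt-Atp8 at 0.36, mt-Nd6 at 0.56 and mt-Nd4l at 0.57. These 4 are the members with the fewest counts in all, mt-Nd6 with 34927 against at most 1540 for the others of the 4. All points share library and depth. Among 8480 nuclear genes with a mean of at least 10 CPM, scaled on nuclear counts alone, the genes most alike to the summed messenger RNAs were Nus1 at 0.83, Esyt2 at 0.79, Man2a1 at 0.77, Atrn at 0.76 and Lrrc8b at 0.76. The lowest were Chmp6 at -0.85, Gga1 at -0.84, Wipf3 at -0.82, Dnai1 at -0.82 and Eif3f at -0.81. The median of all those genes was -0.02.

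The nuclear genes for subunits of the same complexes had medians below 0 in the IT route. Of 78 such genes for complexes I to V, all were tested. In NCTD_IT 8 were above 0, against 52% of all genes, and the median was -0.44. Called lower were 4 of the 78 and higher none, against 1.37% of all genes called in either direction. They were the complex I subunit genes Ndufb5 at -0.69 (SE 0.16, adjusted p 0.0491) and Ndufb6 at -1.10 (SE 0.25, adjusted p 0.0414), and for the ATP synthase Atp5if1, its inhibitor, at -0.90 (SE 0.21, adjusted p 0.0482) and Atp5pd, a stalk subunit, at -0.83 (SE 0.20, adjusted p 0.0487). These 4 calls came from the NCTD_IT fit in which the number of genes called changed when single tumors were left out. With Xist as a covariate, 0 genes of the whole table were called. By complex, the median was -0.41 for the 36 genes of complex I, -0.57 for the 9 of complex III, -0.43 for the 11 of complex IV and -0.66 for the 18 of complex V. Complex II, which has no mitochondrial subunit, was at -0.32 over 4 genes. In PTX_IT and MIX_IT the median of the 78 was -0.29 and -0.14, with 13 and 22 above 0, against 51.6% and 51.1% of all genes, and 0 called. In MIX_IT 4 of the 78 were higher at an unadjusted p under 0.05, against 7.88% of all genes. At that level 7 were lower, and the share of all genes lower was not computed. In PTX_IP, NCTD_IP and MIX_IP it was 0.01, 0.14 and 0.05, and none was called.

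Genes that copy, transcribe and process mitochondrial DNA and RNA had no call by edgeR in any comparison with control, among those that passed the filter on low counts. In the IT fits these were 17 of 18 listed genes of replication, 11 of 13 of transcription and packaging, 31 of 32 of RNA processing and decay, 15 of 15 biogenesis regulators and 12 of 13 of the unfolded protein response and proteases. In the IP fits 16 replication genes passed, and the other numbers were equal. In NCTD_IT the RNA polymerase gene Polrmt was at -0.32 (SE 0.34, adjusted p 0.625), the packaging factor gene Tfam at -0.25 (SE 0.22, adjusted p 0.528) and the initiation factor gene Tfb2m at -0.25 (SE 0.37, adjusted p 0.731). Lrpprc, whose product stabilizes mitochondrial messenger RNAs, was at -0.58 (SE 0.38, adjusted p 0.382), and its partner Slirp had 0 counts in every tumor. Ppargc1a, the coactivator of mitochondrial biogenesis, was at 0.04 (SE 0.32) in NCTD_IT. It had an unadjusted p under 0.05 in PTX_IP, at -0.77 (SE 0.30, adjusted p 0.906), and in MIX_IT, at 0.89 (SE 0.32, adjusted p 0.263). The list medians in NCTD_IT lay between -0.30 and 0.18.

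Other RNAs moved in the same tumors. In NCTD_IT the nuclear-retained RNAs Malat1, at 2.49 (SE 0.45, adjusted p 0.0280), and Neat1, at 1.54 (SE 0.28, adjusted p 0.0280), were called higher. Malat1 was at 76.3 to 96.5 CPM in CONTROL_IT, 279 to 693 in NCTD_IT, 156 to 498 in MIX_IT and 74.2 to 424 in PTX_IT. The summed level of the 6 listed nuclear-retained RNAs was 266 to 369 CPM in CONTROL_IT and 874 to 1656 CPM in NCTD_IT. The summed 12 melanocyte markers were at 30705 to 36085 CPM in CONTROL_IT and 22227 to 30939 CPM in NCTD_IT, with 1 of 12, Mitf, called lower at -0.86 (SE 0.18, adjusted p 0.0363). Summed markers of other cells were 225.6 to 1089 CPM in CONTROL_IT and 596 to 1690 CPM in NCTD_IT for 10 of macrophages, and 109 to 370.3 against 393 to 1682 CPM for 8 of fibroblasts. Those of 7 endothelial genes were 39.9 to 62.8 against 78.5 to 147 CPM, and those of 6 neutrophil genes 2.26 to 8.76 against 17.9 to 1093 CPM. The neutrophil genes S100a8 and S100a9 and the endothelial gene Emcn were called higher, against 1.37% of all genes called in either direction. The neutrophil sum was uneven among NCTD_IT tumors, with a median of 36.6 CPM. In that group S100a9 ran from 4.27 to 758 CPM, against 0.283 to 3.53 CPM in CONTROL_IT. The 12 skeletal muscle markers, a tissue rich in mitochondria, summed to at most 263 CPM in any tumor, at 5.66 to 44.9 CPM in CONTROL_IT and 6.95 to 263 CPM in NCTD_IT. Its genes Tnnc2, Atp2a1 and Mb had 0 counts in both groups. Erythroid markers (6 matched of 7) summed to 1238 to 6944 CPM in CONTROL_IT and 258 to 1360 CPM in NCTD_IT, and those of 7 adipocyte genes to 69.0 to 85.2 and 135 to 292 CPM. The 9 lymphocyte genes summed to 1.80 to 129 and 22.8 to 267 CPM, and the 7 keratinocyte genes to at most 1.53 and 13.8 CPM. The part of these cells and RNAs in the mitochondrial levels was not tested. All calls named in this paragraph came from the NCTD_IT fit, where the number of genes called changed with single tumors left out. With Xist as a covariate, 0 genes were called in it.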

How the data were processed

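RNA from 23 tumors was read with 3′ libraries from poly(A) RNA. Per the labels and the methods, the authors trimmed reads with Trimmomatic, aligned them with STAR 2.7.11b to GRCm39 and deposited whole-number counts per gene, with no normalization. How reads with several matches were assigned, and the strand setting, are not given in the sources used here. Each column of the count table was tied to its tumor by name, and groups came from the labels. No row lacked a gene. The 37 members are the rows on chromosome MT. Members, gene lists and tests were chosen with earlier results of these data known.

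Counts were filtered (filterByExpr, minimum 10 per tumor and 15 in total), scaled by TMM and fitted with edgeR 4.0.16 (quasi-likelihood F test, 1 model per route, or all 23 tumors for the contrasts between routes) in R 4.3.3. All p-values are two-sided, and those of edgeR are adjusted by Benjamini-Hochberg over all genes tested, with a threshold of 0.05. DESeq2 adjusts only over genes that pass its default filter, at the same threshold. Its totals count every gene with a p-value, and some of these may have had no adjusted p. SE is the log2 fold change divided by the square root of F. CPM are scaled by TMM, and shares use unscaled totals. The study's own tool, DESeq2 (here 1.42.0), was an alternative, as were other scalings, no filter, only the groups compared, Xist as a covariate and leaving out each tumor. After seeing the data, summing counts with the chromosome 1 copies and leaving out tumors in the remaining comparisons were added. The fits were tested on simulated counts. The replicates are separate tumors of separate mice as far as the labels tell. Totals of 2861578 to 6702374 counts set the precision, and the limits from a count of 0 cover counting error only.

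The 15 messenger and ribosomal RNA genes are named one by one, transfer RNA genes only where among the 5 highest totals, which left mt-Tp with any count. Of the listed nuclear genes, those past the threshold are named, at most 6 per comparison, and Polrmt, Tfam, Tfb2m, Lrpprc, Slirp and Ppargc1a always. Of other nuclear genes, the 5 highest and 5 lowest by Spearman's rho are given. Of the complex V genes, 17 were matched by identifier. Sequences were read from GRCm39, and the mitochondrial genome was compared with chromosome 1 by BLASTN 2.17.0. Gene coordinates are 1-based in GRCm39.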

Additional observations from a re-analysis of the deposited data

Results flagged for a closer look

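Of 72 sets of 4 tumors looked at (16 genes, the summed share and 7 copies in the 3 IT groups of 4), 5 held a tumor far from the other 3, where the gap to its nearest neighbor exceeded 0.829 of the whole range. Chance alone gives about 1 in 20. In NCTD_IT, replicate 19 stood below the others for mt-Rnr1, at 547 CPM against 1273 to 1353, and for mt-Nd6, at 151 CPM against 425 to 478. In CONTROL_IT, replicate 10 stood above the others for mt-Co1, at 1103 CPM against 735 to 789. For the share of the mt-Atp6 pair on Gm10925, NCTD_IT replicate 20 was at 63.7% against 8.41 to 17.8%, and MIX_IT replicate 22 at 13.9% against 7.99 to 8.45%.

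The summed mitochondrial share lay on opposite sides of the control mean by route for both treatments with PTX. Every PTX_IT tumor was above the mean of its controls, by 0.881 percentage points on average, and every PTX_IP tumor below it, at -1.42 points. For MIX the differences were 2.02 points in IT and -0.477 points in IP, again with each tumor on its side. The difference between routes in this sum was not tested, and route, vehicle and batch cannot be told apart.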

How the results depend on the processing

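Of 264 alternative values for counts of called genes and for the summed share, 249 stayed near the main value. Near meant a count within a set factor of the main one, or a difference of share within the SD between tumors. A count could stay near while a single gene gained or lost a call. Of 1200 values for single genes, 1113 kept their sign and their side of the threshold, 22 lost a call, 27 gained one and 38 changed sign. No scaling (DESeq2 size factors, nuclear genes alone, library totals) changed the sign of a gene. The 3 members called in NCTD_IT became 8 with no filter on low counts (1190 of 26878 genes called), 7 with DESeq2 (1378 of 23520) and 0 with Xist as a covariate (0 of 12480), against 171 of 12480 genes, and ran from 0 to 7 when single tumors were left out. Over those, the log2 fold change was 0.93 to 1.36 for mt-Cytb, 1.01 to 1.34 for mt-Rnr1 and 1.15 to 1.59 for mt-Rnr2. The 0 members called in MIX_IT became 4 with no filter (364 of 26878 genes), 7 with DESeq2 (228 of 23247) and 1 with Xist as a covariate (76 of 12480), against 0 of 12480 genes. The DESeq2 totals count genes with a p-value, some of which may have had no adjusted p. The causes of these shifts were not tested.

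Xist did not overlap between CONTROL_IT and either NCTD_IT or PTX_IT, so fits with it as a covariate cannot separate Xist from treatment. The signs below are therefore not treatment effects freed of Xist. With Xist as a covariate, log2 fold changes turned negative in NCTD_IT for mt-Rnr2 (-0.10), mt-Rnr1 (-0.17), mt-Nd5 (-0.12), mt-Nd6 (-0.30) and mt-Nd4l (-0.56). In PTX_IT they did so for mt-Nd1 (-0.13), mt-Nd4 (-0.0904), mt-Rnr2 (-0.44), mt-Co3 (-0.26), mt-Nd2 (-0.29), mt-Co1 (-0.0112), mt-Nd3 (-0.18), mt-Rnr1 (-0.53), mt-Nd5 (-0.37), mt-Nd6 (-0.43) and mt-Nd4l (-0.51). Summing counts with the chromosome 1 copies turned MIX_IP positive for mt-Co2 (0.15), mt-Atp6 (0.27), mt-Co1 (0.0754) and mt-Nd4l (0.0314), turned mt-Atp6 in MIX_IT negative (-0.44), and moved the log2 difference of the summed share in MIX_IP from -0.18 to -0.0515. Signs also changed when single tumors were left out. In MIX_IP the ranges were -0.58 to 0.61 for mt-Atp8, -0.19 to 0.18 for mt-Co2, -0.16 to 0.0727 for mt-Nd4, -0.33 to 0.0687 for mt-Nd4l, -0.40 to 0.0211 for mt-Nd6, -0.21 to 0.56 for mt-Rnr1 and -0.20 to 0.37 for mt-Rnr2. They were -0.98 to 0.11 for mt-Atp8 in NCTD_IP, -0.93 to 0.16 for mt-Atp8 in PTX_IP, -0.0155 to 0.11 for mt-Co3 in PTX_IT and -0.0561 to 0.0888 for mt-Nd3 in PTX_IT.

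No paired analysis was possible because no replicate number is shared by tumors of different groups. Where a tumor was left out of a group of 2, the lone tumor was assumed to vary like the other groups. With 2 tumors per IP group, and with mt-Atp8, mt-Nd4l and mt-Tp at 139 counts or fewer per tumor, small differences were not detectable.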

Other observations

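A second nuclear copy split the tumors, with its low side in both routes and in PTX, NCTD and MIX groups. Gm13339, a pseudogene model on chromosome 2, matches bases 4442 to 4951 of the mitochondrial genome, within mt-Nd2, over 510 bases at 96.667% identity with 17 mismatches. It had 1 or 2 counts in 4 tumors and 184 to 1376 counts in the other 19. The 4 tumors were NCTD_IP replicate 5, PTX_IT replicate 15, NCTD_IT replicate 19 and MIX_IT replicate 23, with 4823, 2458 and 7783 counts on mt-Nd2 itself in the last 3 and 6115 in the first. The 4 tumors were all on the low side for Gm10925, the copy of mt-Atp6, at 27.5, 18.6, 8.41 and 7.99% of the pair. That side held 17 of all 23 tumors, and a link between the splits was not tested. NCTD_IT replicate 19, the tumor with the low mitochondrial share, is 1 of the 4, but MIX_IT replicate 23, with a share of 5.73%, is another. Both genes were singled out after their values were seen.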
